A study of Homo sapiens with 18 samples.

Results

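Cells make cholesterol and fatty acids from cytosolic acetyl-CoA, and 34 genes of these pathways were followed across 18 RNA-seq libraries of breast cancer spheroids. The genes were chosen by symbol for what their products do, with earlier results of these data known. They are 7 enzymes from acetyl-CoA to the isoprenoid diphosphates (ACAT2, HMGCS1, MVK, PMVK, MVD, IDI1, FDPS), 11 enzymes that make squalene and turn it into cholesterol (FDFT1, SQLE, LSS, CYP51A1, TM7SF2, MSMO1, NSDHL, HSD17B7, EBP, SC5D, DHCR7) and 5 genes of the regulatory machinery (SREBF1, SREBF2, INSIG1, INSIG2, SCAP). They also include 4 genes of sterol transport and of the response to oxysterols (STARD4, ABCA1, ABCG1, MYLIP) and 7 genes of fatty acid synthesis, elongation and desaturation (FASN, SCD, ACLY, ACACA, ELOVL6, FADS1, FADS2). All 34 were found among the 62710 genes of the count table, and all 34 passed the filter on low counts with 17030 genes in total.

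The cells were MDA-MB-231, an established breast cancer line labelled as triple negative, grown as spheroids of 2000 cells with 100000 cells per sample. Spheroids carried 1 of 2 genotype labels, Wildtype (called control here) or MMP14-KO (called targeted), where MMP14 is a metalloproteinase of the cell surface that cuts collagen fibrils. Each genotype was sampled in hanging droplets after 5 days of spheroid formation, and 24 h or 48 h after embedding in a collagen hydrogel, with 3 libraries in each of the 6 groups. The gels, but not the droplets, were digested with collagenase at 2 mg/ml and 37 °C before RNA isolation, so matrix, time and digestion cannot be told apart where collagen is compared with droplets. The labels do not say whether the targeted cells were a clone or a pool, or whether the replicates came from separate cultures. P-values therefore measure the spread between these samples, which may be technical. In bulk RNA, fewer cells that express a gene and less RNA per cell cannot be told apart.

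Sterol synthesis is under feedback control. When membranes are low in sterol, the escort protein SCAP carries the SREBP precursors, encoded by SREBF1 and SREBF2, from the endoplasmic reticulum to the Golgi, where they are cleaved into transcription factors that raise genes of sterol and fatty acid synthesis. INSIG1 and INSIG2 hold SCAP back when sterol is plentiful, and oxysterols then activate the LXR receptors, which raise the cholesterol exporters ABCA1 and ABCG1, the ubiquitin ligase MYLIP and SREBF1 itself.

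Promoter windows are shown for 4 members, 1 for each of 4 roles among the 7 whose change in collagen differed between the genotypes at 48 h (below): the transcription factor SREBF2, the lanosterol synthase LSS, the sterol carrier STARD4 and the stearoyl-CoA desaturase SCD. Each window is the 250 bases before the RefSeq start of the gene in GRCh38.p14, 5′ to 3′ on the gene's strand. SREBF2 lies on the plus strand at chr22:41832855-41833104, LSS on the minus strand at chr21:46228775-46229024, STARD4 on the minus strand at chr5:111512536-111512785 and SCD on the plus strand at chr10:100346983-100347232. Capitals mark matches to TCACNCCAC, a core of the sterol regulatory element, and to CCAAT, the box bound by NF-Y, each searched on both strands. The window of SREBF1, which has the same role as SREBF2, held neither and is not printed.
SREBF2: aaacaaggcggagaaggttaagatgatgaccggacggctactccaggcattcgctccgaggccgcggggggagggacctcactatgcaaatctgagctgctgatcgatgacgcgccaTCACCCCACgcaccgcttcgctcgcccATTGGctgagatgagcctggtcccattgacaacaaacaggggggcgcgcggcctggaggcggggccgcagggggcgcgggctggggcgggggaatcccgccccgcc
LSS: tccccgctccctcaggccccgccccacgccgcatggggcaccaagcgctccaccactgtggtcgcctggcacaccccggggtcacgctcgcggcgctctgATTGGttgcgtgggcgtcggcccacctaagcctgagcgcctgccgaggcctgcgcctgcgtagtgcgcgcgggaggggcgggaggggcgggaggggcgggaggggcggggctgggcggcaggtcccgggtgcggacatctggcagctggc
STARD4: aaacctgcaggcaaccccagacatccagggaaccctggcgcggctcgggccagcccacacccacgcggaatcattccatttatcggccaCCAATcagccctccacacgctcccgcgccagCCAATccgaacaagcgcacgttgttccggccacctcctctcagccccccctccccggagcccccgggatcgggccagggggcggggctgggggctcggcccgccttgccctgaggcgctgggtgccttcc
SCD: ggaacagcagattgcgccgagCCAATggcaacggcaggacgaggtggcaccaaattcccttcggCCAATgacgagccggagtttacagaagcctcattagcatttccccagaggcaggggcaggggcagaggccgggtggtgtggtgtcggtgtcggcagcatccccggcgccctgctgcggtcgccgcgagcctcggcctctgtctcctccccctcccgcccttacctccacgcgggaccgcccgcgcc
Windows were found for 29 of the 34 members (not for ACAT2, FDFT1, SQLE, ABCG1 and FASN), some with several starts, which gave 39 windows. TCACNCCAC occurred in 1 of the 39 windows (2.56%), that of SREBF2, at 133 bases before the start, and in 0.883% of 35116 RefSeq windows of the same length. CCAAT occurred in 24 of the 39 (61.5%) and in 32% of all windows, and CACGTG, an E-box, in 5 of the 39 (12.8%) and in 6.34%. A match describes these letters only, and a window without one says nothing about the factor.

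Total counts ran from 19819401 to 33352163 per library. MMP14, the targeted gene, was at 1284 to 2250 CPM (counts relative to the scaled library size) in the 9 control libraries and at 138 to 166 CPM in the 9 targeted libraries, so its mRNA was lower but present in each targeted library. The line's mesenchymal markers VIM, CD44, AXL, ZEB1, MSN and CAV1 were present throughout (103 CPM or more). ESR1, PGR and CDH1 stayed under 1 CPM (highest 0.781), while ERBB2 mRNA was at 65.2 to 78.7 CPM. CD3E and LEP were at 0 in all 18 libraries. The share of reads from mitochondrially encoded mRNAs was 1.70% to 2.13% in control droplets, 0.761% to 1.39% in targeted droplets and 1.93% to 3.51% in collagen.

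In droplets 15 of the 34 genes, most of them sterol and fatty acid enzymes, were lower in targeted than in control spheroids. In collagen fewer were lower, and the exporter ABCA1 and the regulator SREBF1 were called higher. The exporter ABCG1 was called higher both in droplets and in collagen. A call is an adjusted p under 0.05 in edgeR's quasi-likelihood test over all 17030 genes with the Benjamini-Hochberg correction, here and throughout. The 15 members called lower in droplets (44.1%) compare with 9.7% of all tested genes, and 1 was called higher (2.94%, against 7.7%). At 24 h the counts were 7 lower (20.6%, against 15.7%) and 5 higher (14.7%, against 13.7%). At 48 h they were 4 lower (11.8%, against 15.1%) and 7 higher (20.6%, against 14.4%). In collagen these shares lie near those of all genes. The median log2 fold change of the 34 members was -0.25 in droplets, -0.096 at 24 h and 0.0070 at 48 h, beside -0.0013, 0.0049 and 0.00084 over all tested genes. In droplets 28 of the 34 log2 fold changes were negative, at 24 h 23 and at 48 h 15. With library size scaling alone, the higher share of all calls was 61.9% in place of 46.5% at 24 h and 64.3% in place of 48.9% at 48 h, and no called member changed sign.

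**Figure D1:**
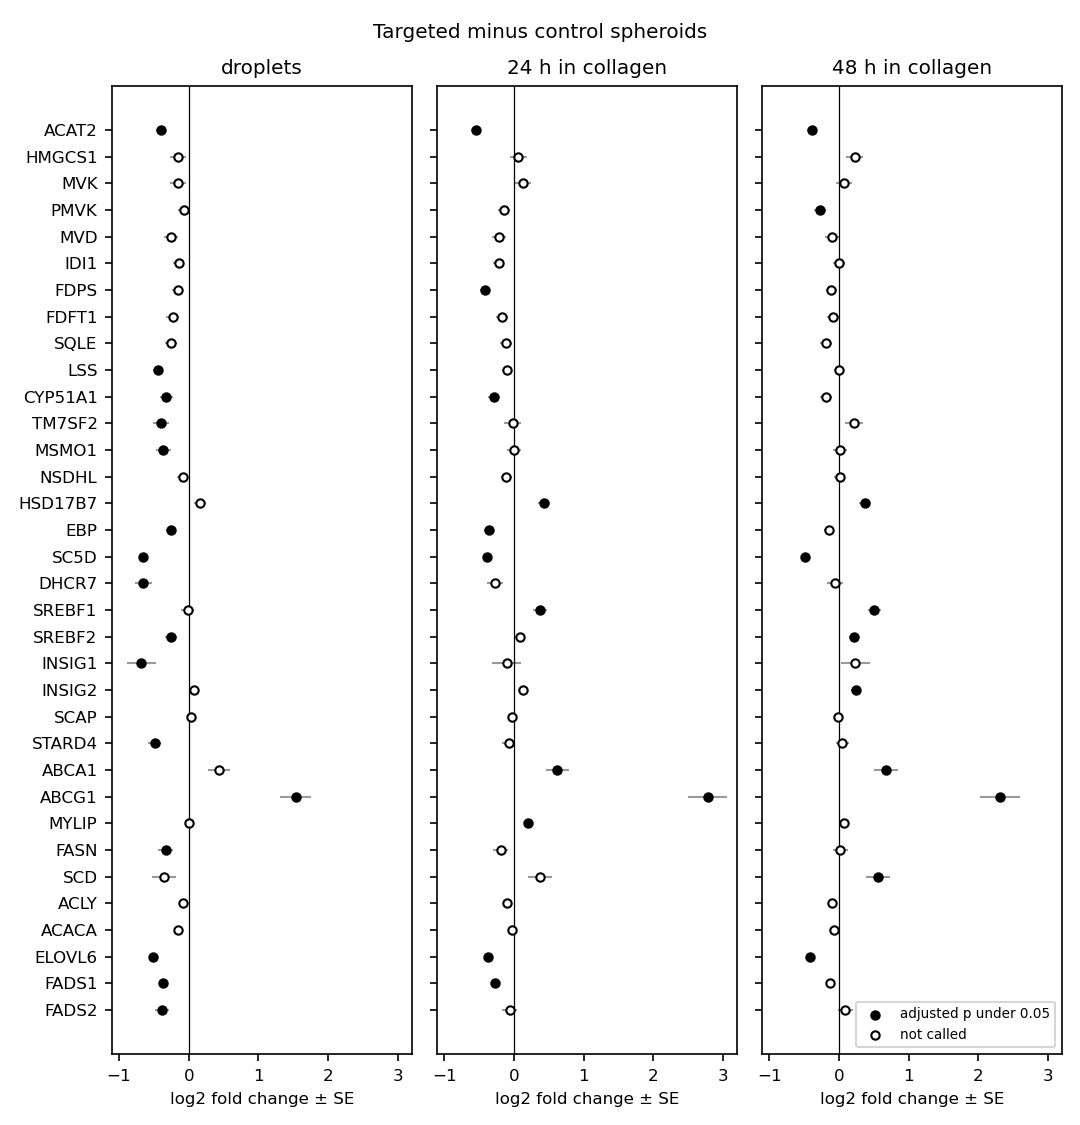
Log2 fold change (targeted minus control, ± SE, 3 libraries a group) of each of the 34 members in droplets, at 24 h and at 48 h in collagen; filled points passed an adjusted p of 0.05. In droplets 15 filled points lie left of 0 and 1, ABCG1, lies right of it; at 48 h 4 lie left and 7 right.

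Of the 16 members called in droplets, 8 passed whichever of the 6 droplet libraries was left out: ABCG1, ACAT2, DHCR7, ELOVL6, FADS1, LSS, SC5D and STARD4. The other 8 (CYP51A1, TM7SF2, MSMO1, EBP, SREBF2, INSIG1, FASN and FADS2) all lost their call without control droplet replicate 2, without targeted droplet replicate 1 or without targeted droplet replicate 3, which brought the count from 16 to 8. With 1 library left out, the highest of their adjusted p-values was 0.196 (SREBF2). CYP51A1, SREBF2 and FASN also lost it when only the 2 groups entered the fit, and SREBF2 and FASN with library size scaling. At 48 h the count went from 11 to 7 without control 48 h replicate 3.

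Some of these genes changed differently between droplets and collagen in the 2 genotypes. The test of that difference is the interaction of genotype and condition, and a positive value means a larger rise or a smaller fall in targeted spheroids. From droplets to 48 h, 7 members had a called difference, all positive (20.6%, against 4% of all genes; 0 were negative, against 2.78%): SCD 0.92 ± 0.24, TM7SF2 0.62 ± 0.17, DHCR7 0.59 ± 0.17, STARD4 0.53 ± 0.13, SREBF1 0.52 ± 0.13, SREBF2 0.47 ± 0.12 and LSS 0.45 ± 0.096 on the log2 scale (± SE). Their adjusted p-values in edgeR's test ran from 0.0108 (LSS) to 0.0431 (DHCR7). Of all 34 differences, 31 were positive, with a median of 0.19 beside 0.010 over all genes. From droplets to 24 h, 2 members were called, LSS at 0.35 ± 0.096 and ABCG1 at 1.24 ± 0.36 (5.88%, against 3.32% higher; 0 were lower, against 4.09%). These comparisons share the droplet libraries with the genotype comparison in droplets and are not independent of it.

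Most of these calls at 48 h were lost when 1 of several libraries was left out. Over all genes the count of calls was 1156 and moved to between 316 and 1977 in the same refits. LSS was called whichever of the 12 libraries was left out, but the count of 7 went to 1 without control droplet replicate 1, control droplet replicate 2, targeted droplet replicate 3 or control 48 h replicate 3. It went to 2 without targeted droplet replicate 1, to 3 without targeted 48 h replicate 1 and to 4 without control 48 h replicate 2. The adjusted p-values of the other 6 reached at most 0.123 (DHCR7), and none of the 7 differences changed sign. DHCR7 also lost its call when only the 4 groups compared entered the fit. At 24 h both calls were lost without any of 9 libraries (control droplet replicates 1 and 2, targeted droplet replicates 1 and 3, control 24 h replicates 2 and 3 and all 3 targeted 24 h replicates), and LSS also without targeted droplet replicate 2. The adjusted p-values then reached 0.114 for LSS and 0.155 for ABCG1, which also missed the threshold with relative log expression scaling. Without control droplet replicate 3 or control 24 h replicate 1, 7 members were called at 24 h. Over all genes the count at 24 h was 1262 and moved to between 414 and 1953 with 1 library left out. With library size scaling alone, the higher share of all calls was 59% in place of 44.8% in the interaction at 24 h and 73.9% in place of 59% in that at 48 h. Between 24 h and 48 h in collagen, edgeR called no difference between the genotypes for any member or any gene (0% in each direction). At an unadjusted p under 0.05 there were 2 members and 1107 genes, and DESeq2 called 0 members and 10 genes.

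**Figure D2:**
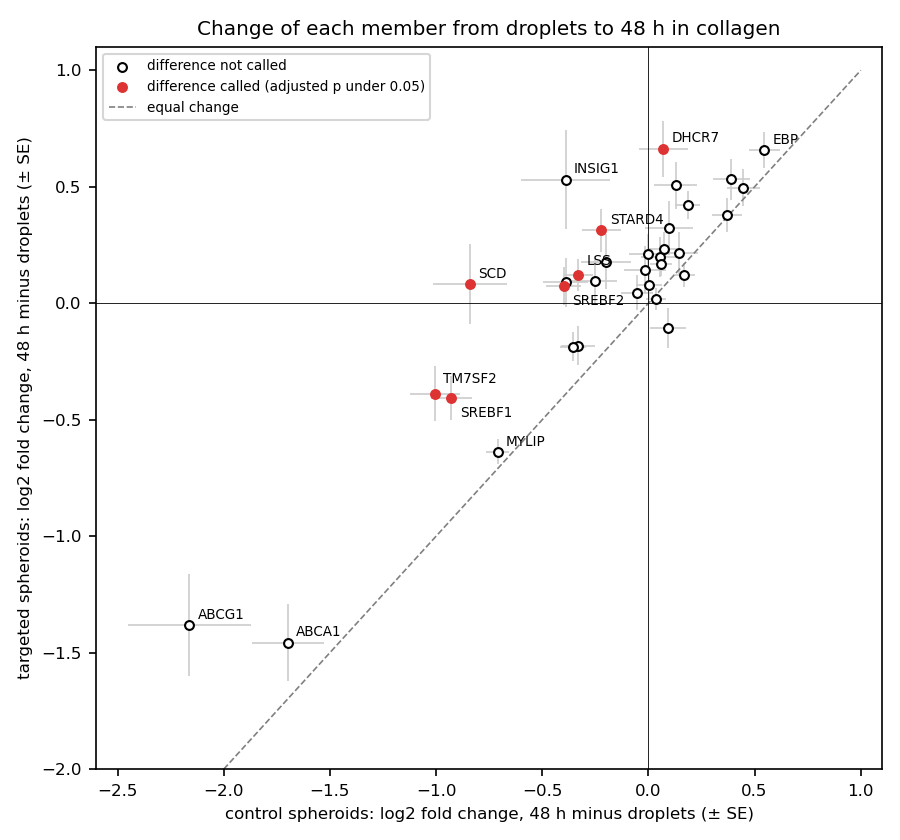
Log2 fold change from droplets to 48 h in collagen (± SE) in control spheroids (x axis) and targeted spheroids (y axis) for the 34 members; the dashed line marks equal change and red points are the 7 members with a called difference. All 7 red points lie above the line, and ABCG1 and ABCA1 lie lowest in both genotypes.

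Both SREBP genes fell in control spheroids from droplets to 48 h in collagen, and fell less, or not detectably, in targeted spheroids, with a called difference for each. SREBF1, whose main product drives fatty acid genes, had 165, 157 and 134 CPM in the control droplet libraries, 96.1, 83.8 and 78.6 CPM at 24 h and 85.8, 82.8 and 70.8 CPM at 48 h. In targeted spheroids it had 145, 161 and 146 CPM in droplets, 122, 109 and 104 CPM at 24 h and 123, 105 and 112 CPM at 48 h. The genotypes overlapped in droplets, and each targeted collagen library lay above each control library of its time point. SREBF1 fell in control by 1.76-fold at 24 h and 1.90-fold at 48 h (log2 -0.82 ± 0.094 and -0.93 ± 0.095, adjusted p = 7.92e-07 and 2.08e-07) and in targeted by 1.35-fold and 1.33-fold (adjusted p = 0.000882 and 0.00152). It was 1.298-fold higher in targeted spheroids at 24 h (adjusted p = 0.00615) and 1.422-fold at 48 h (adjusted p = 0.000762). SREBF1 (chr17:17810399-17837002, minus strand, GRCh38) shares 556 exonic bases with RAI1 on the other strand, and whether strand was used in the counting is not given in the sources used here.

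SREBF2, whose product drives sterol synthesis, had 124, 128 and 103 CPM in control droplets, 101, 84.7 and 91.6 CPM at 24 h and 96.3, 89.6 and 83.1 CPM at 48 h. The targeted libraries had 95.7, 106 and 96.0 CPM, 102, 94.9 and 96.3 CPM and 113, 96.5 and 104 CPM in the same order. All control collagen libraries lay below the control droplets, while the targeted collagen libraries overlapped the targeted droplets. SREBF2 fell in control from droplets to 24 h by 1.28-fold (adjusted p = 0.000836). The log2 change from droplets to 48 h was -0.40 ± 0.082 in control (adjusted p = 0.000312) and 0.074 ± 0.082 in targeted spheroids (adjusted p = 0.474). In droplets SREBF2 was lower in targeted spheroids at log2 -0.25 ± 0.081 (adjusted p = 0.0347, with overlapping libraries and the losses given above), and at 48 h higher at 0.22 ± 0.082 (adjusted p = 0.049). The call at 48 h was lost without control replicate 2 or 3 or targeted replicate 1 or 3 (adjusted p of up to 0.207) and with relative log expression scaling.

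Of the sterol-sensing partners, INSIG1 varied most. INSIG1, itself raised by SREBP, had 35.2, 52.8 and 36.2 CPM in control droplets and 25.4, 26.9 and 25.2 CPM in targeted droplets. Control droplet replicate 2 lay well above the other control droplets, and all targeted droplets lay below them. INSIG1 was 1.61-fold lower in targeted droplets (log2 -0.68 ± 0.21, adjusted p = 0.0392), a call lost without control replicate 2 or any of the 3 targeted droplet libraries (adjusted p of up to 0.188). In collagen it had 44.4, 29.1 and 27.3 CPM (control) and 31.8, 29.7 and 32.0 CPM (targeted) at 24 h, and 37.3, 30.2 and 27.5 CPM and 43.7, 29.02 and 39.1 CPM at 48 h, with overlap at both times. Its difference between genotypes in the change to 48 h was 0.92 ± 0.30 and missed the threshold (adjusted p = 0.0791).

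INSIG2 had 57.9, 59.0 and 51.7 CPM in control and 65.0, 75.3 and 58.9 CPM in targeted spheroids at 48 h, and the highest and lowest libraries of the 2 groups overlapped. It was 1.18-fold higher in targeted spheroids (adjusted p = 0.0132), a call lost without control 48 h replicate 3 or targeted 48 h replicate 2 (adjusted p of up to 0.135) and when only the 2 groups entered the fit. From droplets to 48 h it rose 1.18-fold in targeted spheroids (adjusted p = 0.00817), lost without targeted 48 h replicate 2 (0.13). In the other 4 groups INSIG2 had 55.0, 54.4 and 51.1 CPM (control droplets), 55.2, 51.3 and 54.2 CPM (control, 24 h), 58.6, 54.9 and 55.9 CPM (targeted droplets) and 58.7, 59.0 and 59.0 CPM (targeted, 24 h). SCAP, the escort, had 98.4, 91.8 and 92.5 CPM in control droplets, 111, 110.3 and 104 CPM at 24 h and 106, 107 and 104 CPM at 48 h. SCAP rose in control spheroids by 1.15-fold and 1.12-fold (adjusted p = 0.00194 and 0.00801). In targeted spheroids SCAP had 97.4, 93.3 and 98.7 CPM, 104, 105 and 109.7 CPM and 113, 99.1 and 103 CPM, and it rose by 1.10-fold at 24 h (adjusted p = 0.0296), a call lost without targeted droplet replicate 1 or 2 or targeted 24 h replicate 2 or 3 (adjusted p of up to 0.135) and without the filter on low counts. No genotype difference of SCAP was called in the 3 conditions.

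**Figure D3:**
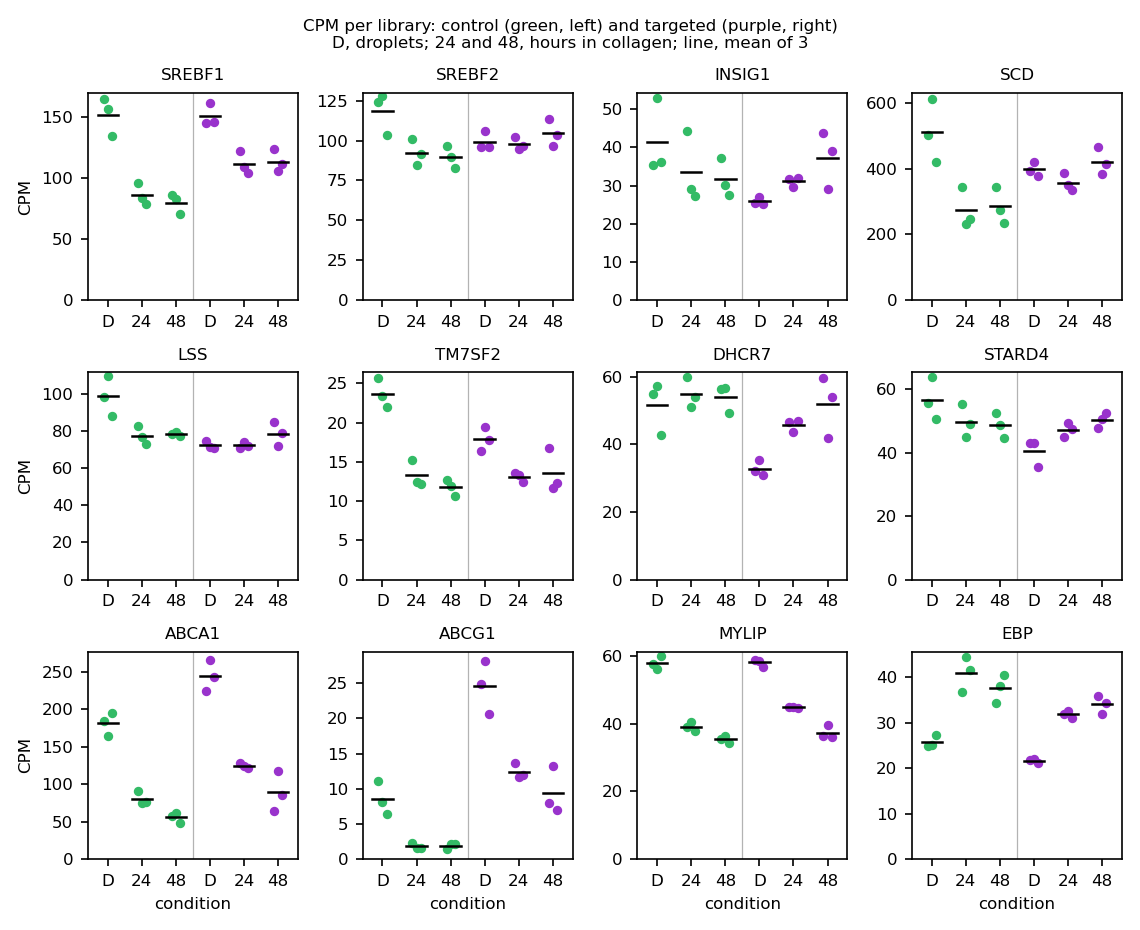
CPM in each library for 12 members, in control (green) and targeted (purple) spheroids in droplets (D) and after 24 or 48 h in collagen; horizontal lines are means of 3 libraries and each axis starts at 0. SREBF1, SCD and TM7SF2 step down from droplets to collagen in control spheroids, and ABCG1 lies higher in each targeted group than in the control group of the same condition.

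Along the mevalonate arm, ACAT2 was lower in targeted spheroids in all 3 conditions, FDPS at 24 h and PMVK at 48 h. The 7 enzymes had a median log2 fold change of -0.15 in droplets, -0.21 at 24 h and -0.097 at 48 h, with 1, 2 and 2 called lower (against 9.7%, 15.7% and 15.1% of all genes) and 0 called higher. ACAT2, a cytosolic thiolase that joins acetyl-CoA units, had 38.1, 41.4 and 35.9 CPM in control and 28.8, 29.7 and 29.4 CPM in targeted droplets. At 24 h it had 41.4, 46.6 and 49.0 CPM in control and 30.3, 31.4 and 32.2 CPM in targeted spheroids, and at 48 h 46.9, 49.6 and 52.6 CPM and 39.9, 35.0 and 39.3 CPM. In each condition all targeted libraries lay below all control libraries. ACAT2 was 1.31-fold, 1.46-fold and 1.305-fold lower in targeted spheroids (log2 -0.39 ± 0.072, -0.55 ± 0.071 and -0.38 ± 0.071; adjusted p = 0.00044, 8.32e-06 and 0.000356). It rose in collagen in control spheroids by 1.19-fold at 24 h and 1.29-fold at 48 h (adjusted p = 0.00417 and 0.000112) and in targeted spheroids by 1.3-fold at 48 h (adjusted p = 0.000163). ACAT2 (chr6:159760328-159779055, plus strand) shares exonic bases with TCP1, SOD2 and SOD2-OT1 on the other strand (397, 1141 and 1458 bases), so its counts are uncertain if strand was not used.

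FDPS, which makes farnesyl diphosphate for sterols and protein prenylation, rose in collagen in both genotypes. In control it had 74.8, 84.3 and 79.1 CPM in droplets, 105, 122 and 119.5 CPM at 24 h and 103, 108 and 114 CPM at 48 h. In targeted spheroids it had 72.0, 67.9 and 73.5 CPM, 80.3, 86.8 and 92.6 CPM and 112, 88.1 and 100.2 CPM. Each collagen group lay above the droplets of its genotype, and the targeted libraries lay below the control libraries in droplets and at 24 h. The rise was 1.45-fold and 1.36-fold in control (adjusted p = 4.3e-06 and 4.66e-05) and 1.22-fold and 1.41-fold in targeted spheroids (adjusted p = 0.00433 and 2.12e-05). At 24 h FDPS was 1.33-fold lower in targeted spheroids (adjusted p = 0.000426). The annotation holds 8 FDPS pseudogenes and the antisense gene RUSC1-AS1, which may share reads with FDPS.

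HMGCS1, which makes the HMG-CoA on which the pathway's rate-limiting step acts, was called in none of the 12 comparisons, and neither was MVD, a decarboxylase. HMGCS1 group means were 40.6 ± 7.83, 35.3 ± 4.86 and 35.4 ± 2.52 CPM in control (SD, n = 3; droplets, 24 h, 48 h) and 36.6 ± 2.21, 36.8 ± 2.50 and 41.4 ± 3.96 CPM in targeted spheroids. The kinases MVK and PMVK were called in 1 comparison each. MVK rose from 15.3 ± 0.502 CPM in targeted droplets to 19.1 ± 3.69 CPM at 48 h (adjusted p = 0.0238, lost without targeted droplet replicate 1 or 3 or targeted 48 h replicate 1 or 3, at up to 0.184, and when only the 2 groups entered the fit). PMVK was lower in targeted spheroids at 48 h, at 21.4 ± 1.60 against 25.8 ± 2.71 CPM (adjusted p = 0.0225, lost without control replicate 2 or targeted replicate 2 or 3, at up to 0.157, with library size scaling and with only the 2 groups in the fit). IDI1, the isopentenyl isomerase, fell from 76.2 ± 10.5 to 60.6 ± 1.46 CPM in control at 48 h (adjusted p = 0.0017) and from 68.9 ± 2.98 to 57.8 ± 1.62 CPM in targeted spheroids at 24 h (adjusted p = 0.0143, lost without targeted droplet replicate 2 or targeted 24 h replicate 1, at up to 0.0538).

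Of the 11 enzymes that make squalene and turn it into cholesterol, 7 were lower in targeted droplets. None was called higher, against 9.7% and 7.7% of all genes. At 24 h 3 were lower and 1 higher (against 15.7% and 13.7%), and at 48 h 1 was lower and 1 higher (against 15.1% and 14.4%). Their median log2 fold change was -0.32 in droplets, -0.11 at 24 h and -0.057 at 48 h. SC5D, which desaturates the sterol ring near the end of the pathway, was lower in targeted spheroids in all 3 conditions. Control libraries had 57.6, 64.5 and 59.3 CPM in droplets, 47.2, 43.1 and 47.5 CPM at 24 h and 48.6, 46.4 and 46.9 CPM at 48 h. Targeted libraries had 36.9, 39.3 and 39.2 CPM in droplets, 35.3, 34.8 and 35.3 CPM at 24 h and 32.7, 32.1 and 36.8 CPM at 48 h. No targeted library reached the lowest control library of its condition. The difference was 1.57-fold in droplets, 1.31-fold at 24 h and 1.40-fold at 48 h (adjusted p = 9.49e-08, 8.75e-05 and 7.99e-06). SC5D fell on moving to collagen in control (log2 -0.40 ± 0.060 at 24 h and -0.36 ± 0.061 at 48 h, adjusted p = 7.07e-06 and 3.26e-05). In targeted spheroids it was lower at 48 h than in droplets at -0.19 ± 0.063 (adjusted p = 0.0183, lost without targeted 48 h replicate 1 or 2, at up to 0.0747).

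DHCR7, the reductase of the last step to cholesterol, was lower in targeted droplets and rose in collagen in targeted spheroids. Control droplets had 54.9, 57.2 and 42.8 CPM and targeted droplets 32.2, 35.3 and 31.0 CPM. Control libraries had 59.9, 51.2 and 54.0 CPM at 24 h and 56.3, 56.7 and 49.4 CPM at 48 h, and targeted libraries 46.8, 43.8 and 46.8 CPM and 59.8, 42.0 and 54.1 CPM. The genotypes were apart in droplets and at 24 h and overlapped at 48 h. DHCR7 was 1.57-fold lower in targeted droplets (adjusted p = 0.000985), and its adjusted p was 0.101 at 24 h and 0.758 at 48 h. The change from droplets to 48 h was log2 0.66 ± 0.12 in targeted (adjusted p = 0.000214) and 0.071 ± 0.12 in control spheroids (adjusted p = 0.634). At 24 h the rise in targeted spheroids was 0.48 ± 0.12 (adjusted p = 0.00311).

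LSS, which folds squalene epoxide into lanosterol and whose promoter window is printed above, had 98.0, 109.6 and 88.0 CPM in control droplets and 74.4, 71.4 and 71.0 CPM in targeted droplets. It had 82.5, 76.8 and 73.0 CPM and 70.8, 73.9 and 72.1 CPM at 24 h, and 78.4, 79.3 and 77.4 CPM and 84.6, 72.0 and 79.0 CPM at 48 h, control before targeted. The targeted droplets all lay below the control droplets, and in collagen the genotypes overlapped. LSS was 1.36-fold lower in targeted droplets (adjusted p = 5.81e-05). It fell by 1.27-fold and 1.26-fold in control collagen (adjusted p = 0.000138 and 0.000259), while the log2 change in targeted spheroids was -0.00059 ± 0.069 at 24 h and 0.12 ± 0.069 at 48 h (adjusted p = 0.995 and 0.149).

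TM7SF2, a sterol reductase whose activity overlaps that of LBR, had the largest fall in control collagen among the sterol enzymes. Control libraries had 25.7, 23.4 and 21.9 CPM in droplets, 15.2, 12.5 and 12.2 CPM at 24 h and 12.7, 11.9 and 10.7 CPM at 48 h. Targeted libraries had 16.3, 19.5 and 17.8 CPM, 13.6, 13.4 and 12.4 CPM and 16.8, 11.7 and 12.3 CPM. All control collagen libraries lay below all control droplets, and at both collagen times the genotypes overlapped. The fall was 1.78-fold and 2.01-fold in control (adjusted p = 2.24e-06 and 2.45e-07) and 1.36-fold and 1.31-fold in targeted spheroids (adjusted p = 0.00298 and 0.00915). In droplets TM7SF2 was 1.32-fold lower in targeted spheroids (adjusted p = 0.0155).

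CYP51A1, the lanosterol demethylase, and EBP, a sterol isomerase, rose in collagen in both genotypes. CYP51A1 had 52.1, 72.2 and 54.6 CPM in control droplets, 81.2, 77.3 and 80.5 CPM at 24 h and 78.0, 80.2 and 76.8 CPM at 48 h. Targeted libraries had 46.9, 49.8 and 46.7 CPM in droplets, 63.2, 67.2 and 66.1 CPM at 24 h and 76.3, 63.6 and 67.2 CPM at 48 h. Every collagen library lay above every droplet library of its genotype. EBP had 24.9, 25.0 and 27.3 CPM in control droplets, 36.6, 44.4 and 41.5 CPM at 24 h and 34.4, 38.0 and 40.4 CPM at 48 h. Targeted libraries had 21.7, 22.0 and 21.1 CPM in droplets, 31.9, 32.5 and 30.9 CPM at 24 h and 35.9, 31.8 and 34.4 CPM at 48 h. For EBP too, every collagen library lay above every droplet library of its genotype. At 24 h CYP51A1 rose 1.33-fold in control and 1.37-fold in targeted spheroids (adjusted p = 0.000411 and 0.000255), and EBP 1.59-fold and 1.47-fold (adjusted p = 8.67e-08 and 2.41e-06). From droplets to 48 h CYP51A1 rose 1.31-fold and 1.45-fold (adjusted p = 0.000787 and 5.4e-05), and EBP 1.46-fold and 1.58-fold (adjusted p = 1.86e-06 and 3.03e-07). At 24 h targeted spheroids were lower than control for CYP51A1 by 1.22-fold (adjusted p = 0.0193, lost without control replicate 1 or 3 or targeted replicate 1, at up to 0.0746, and with library size scaling) and for EBP by 1.28-fold (adjusted p = 0.000795). In droplets they were lower by 1.25-fold and 1.19-fold (adjusted p = 0.0153 and 0.0238). In the annotation CYP51A1 shares 2844 exonic bases on its own strand with AC000120.2, so reads of the 2 may have been split.

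MSMO1, a methylsterol oxidase, rose in collagen in targeted spheroids. It had 42.9, 41.5 and 42.9 CPM in droplets, 51.8, 54.1 and 49.8 CPM at 24 h and 65.0, 55.5 and 60.3 CPM at 48 h. Control libraries had 49.6, 63.7 and 50.1 CPM, 59.5, 43.5 and 51.9 CPM and 62.5, 60.2 and 56.1 CPM, with overlap between conditions. The change to 48 h was 1.421-fold in targeted (adjusted p = 0.000411) and 1.09-fold in control spheroids (adjusted p = 0.297), and the difference of the 2 changes was not called (adjusted p = 0.108). In droplets MSMO1 was 1.29-fold lower in targeted spheroids (adjusted p = 0.0173), a call lost without control droplet replicate 2 or any targeted droplet library (up to 0.143). At 24 h the rise in targeted spheroids (adjusted p = 0.0227) was lost without any of the 3 targeted droplet libraries or targeted 24 h replicate 1 or 2 (up to 0.0874). HSD17B7, a ketosteroid reductase with a transcribed pseudogene, was the enzyme called higher in targeted collagen, at 15.6 ± 0.468 against 11.5 ± 1.21 CPM at 24 h and 17.1 ± 1.72 against 13.3 ± 0.432 CPM at 48 h (adjusted p = 0.00107 and 0.00375). SQLE, the squalene epoxidase that is a further control point of the pathway, and NSDHL were called in none of the 12 comparisons. SQLE had group means of 14.8 ± 1.69, 15.2 ± 1.47 and 16.4 ± 0.642 CPM in control and 12.4 ± 0.497, 14.0 ± 0.483 and 14.4 ± 0.779 CPM in targeted spheroids. FDFT1, the squalene synthase, was called lower in control at 24 h (log2 -0.21 ± 0.087, adjusted p = 0.0466), a call lost without control droplet replicate 2 or control 24 h replicate 2 or 3 (up to 0.38), with only the 2 groups in the fit and with DESeq2.

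On moving to collagen, the sterol exporters fell further than any enzyme in both genotypes, and ABCG1 was higher in targeted spheroids in all 3 conditions. ABCG1, an ATP-binding cassette exporter of cholesterol, had 11.1, 8.13 and 6.43 CPM in control droplets and 24.9, 28.1 and 20.7 CPM in targeted droplets. At 24 h it had 2.34, 1.60 and 1.53 CPM in control and 13.6, 11.7 and 11.9 CPM in targeted spheroids, and at 48 h 1.41, 2.17 and 2.12 CPM and 7.97, 13.3 and 7.04 CPM. Every targeted library lay above every control library of its condition. ABCG1 was 2.90-fold higher in targeted droplets, 6.86-fold at 24 h and 4.97-fold at 48 h (log2 1.53 ± 0.22, 2.78 ± 0.28 and 2.31 ± 0.29; adjusted p = 0.000159, 4.67e-06 and 3.67e-05). It fell in collagen in both genotypes, by 4.70-fold and 4.48-fold in control (adjusted p = 6.61e-06 and 1.15e-05) and by 1.98-fold and 2.61-fold in targeted spheroids (adjusted p = 0.00112 and 8.84e-05). It was the least abundant member per length in every group except targeted droplets, and its gene lies at chr21:42199689-42297244 on the plus strand.

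ABCA1, the exporter that loads cholesterol onto apolipoproteins, had 184, 165 and 195 CPM in control droplets, 90.6, 75.0 and 76.6 CPM at 24 h and 57.4, 61.9 and 48.4 CPM at 48 h. Targeted libraries had 225, 266 and 243 CPM, 128, 124 and 121 CPM and 64.8, 117 and 86.2 CPM. In each condition the targeted libraries lay above the control libraries, and both genotypes were lower in collagen than in droplets. The fall was 2.25-fold and 3.25-fold in control (adjusted p = 4.1e-05 and 1.6e-06) and 1.97-fold and 2.75-fold in targeted spheroids (adjusted p = 0.000224 and 8.56e-06). ABCA1 was 1.54-fold higher in targeted spheroids at 24 h (adjusted p = 0.0128, lost without control replicate 2 or 3, at up to 0.0556) and 1.60-fold at 48 h (adjusted p = 0.01, lost without control replicate 3, at 0.0539, and with only the 2 groups in the fit). In droplets the difference of 1.35-fold missed the threshold (adjusted p = 0.0867).

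MYLIP, a ubiquitin ligase that sends lipoprotein receptors for degradation, also fell in collagen. It had 57.6, 56.1 and 59.9 CPM in control droplets, 39.1, 40.4 and 37.7 CPM at 24 h and 35.5, 36.2 and 34.4 CPM at 48 h. Its targeted libraries had 58.9, 58.5 and 56.8 CPM in droplets, 44.9, 45.0 and 44.6 CPM at 24 h and 36.2, 39.7 and 36.0 CPM at 48 h. Its libraries lay close together within groups, and the collagen groups were clear of the droplets in both genotypes. MYLIP fell 1.48-fold and 1.64-fold in control and 1.29-fold and 1.56-fold in targeted spheroids (adjusted p = 6.48e-09, 3.07e-10, 4.03e-06 and 2.77e-09). It was higher in targeted spheroids at 24 h by 1.15-fold (adjusted p = 0.00725).

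STARD4, a soluble sterol carrier whose gene is raised by SREBP, was lower in targeted droplets and differed between the genotypes in its change to 48 h. Control libraries had 55.6, 63.9 and 50.7 CPM in droplets, 55.2, 45.0 and 49.0 CPM at 24 h and 52.5, 48.8 and 44.7 CPM at 48 h. Targeted libraries had 42.9, 43.2 and 35.4 CPM in droplets, 44.9, 49.3 and 47.5 CPM at 24 h and 47.6, 50.7 and 52.6 CPM at 48 h. The targeted droplets lay below all the control droplets, and in collagen the genotypes overlapped. STARD4 was 1.40-fold lower in targeted droplets (adjusted p = 0.000726). At 48 h it was lower than in droplets in control (log2 -0.22 ± 0.091, adjusted p = 0.0458, lost without control droplet replicate 1 or 2 or control 48 h replicate 2 or 3, at up to 0.291) and higher in targeted spheroids (0.31 ± 0.093, adjusted p = 0.00836, lost without targeted droplet replicate 3, at 0.0783).

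Among the fatty acid genes, 4 of 7 were lower in targeted droplets (FASN, ELOVL6, FADS1 and FADS2) and none was higher, against 9.7% and 7.7% of all genes. At 24 h 2 were lower and none higher (against 15.7% and 13.7%), and at 48 h 1 was lower and 1 higher (against 15.1% and 14.4%). The median log2 fold change of the 7 was -0.36, -0.092 and -0.077 in the 3 conditions. SCD, which makes monounsaturated fatty acids, had 501, 612 and 421 CPM in control droplets, 345, 233 and 248 CPM at 24 h and 345, 276 and 235 CPM at 48 h. Targeted libraries had 394, 422 and 379 CPM, 388, 351 and 334 CPM and 465, 384 and 416 CPM. The control libraries spread widely within groups but fell clear of the droplets in collagen, and the targeted libraries overlapped across conditions. SCD fell 1.86-fold and 1.79-fold in control (adjusted p = 0.000643 and 0.00105), against log2 changes of -0.15 ± 0.17 and 0.083 ± 0.17 in targeted spheroids (adjusted p = 0.49 and 0.721). At 48 h it was 1.48-fold higher in targeted spheroids (adjusted p = 0.0275), a call lost without control replicate 2 or 3 or targeted replicate 1 or 3 (up to 0.117).

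ELOVL6, which lengthens saturated fatty acids, was lower in targeted spheroids in all 3 conditions. Control libraries had 105, 118 and 110.1 CPM in droplets, 112, 113 and 115 CPM at 24 h and 117, 115 and 116 CPM at 48 h. Targeted libraries had 79.7, 74.2 and 79.6 CPM in droplets, 87.5, 84.1 and 91.3 CPM at 24 h and 82.2, 91.4 and 88.9 CPM at 48 h. The genotypes did not overlap in any condition. The differences were 1.43-fold, 1.29-fold and 1.33-fold (adjusted p = 3.62e-07, 2.33e-05 and 7.83e-06). Its small rises in targeted collagen (1.13-fold at 24 h and 1.12-fold at 48 h, adjusted p = 0.00988 and 0.0118) were lost without targeted droplet replicate 2, at 24 h also without targeted 24 h replicate 3 (up to 0.0766) and at 48 h without targeted 48 h replicate 2 or 3 (up to 0.109), without the filter on low counts or with only the 2 groups in the fit.

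FADS1 and FADS2, the desaturases of polyunsaturated fatty acids, are neighbours on chromosome 11 whose exons overlap by 490 bases on opposite strands. FADS1 had 136, 158 and 134 CPM in control droplets, 174, 172 and 177 CPM at 24 h and 172, 157 and 159 CPM at 48 h. In targeted spheroids it had 112, 110.3 and 109.6 CPM in droplets, 146, 144 and 146 CPM at 24 h and 156, 137 and 152 CPM at 48 h. All targeted libraries lay below the control libraries of their condition, narrowly at 48 h (156 against 157 CPM), where the difference was not called. FADS2 had 189, 202 and 163 CPM in control droplets, 155, 134 and 143 CPM at 24 h and 154, 138 and 129.8 CPM at 48 h. In targeted spheroids it had 139, 151 and 135 CPM in droplets, 145, 138 and 131 CPM at 24 h and 176, 126 and 148 CPM at 48 h. From droplets to 24 h FADS1 was higher and FADS2 lower in control collagen, and both were lower in targeted than in control droplets. FADS1 rose 1.22-fold in control and 1.31-fold in targeted spheroids at 24 h (adjusted p = 0.000242 and 1.05e-05). FADS2 fell 1.28-fold in control at 24 h and 1.31-fold at 48 h (adjusted p = 0.00844 and 0.00533). In targeted droplets FADS1 was 1.29-fold and FADS2 1.31-fold lower (adjusted p = 0.000113 and 0.0191), and at 24 h FADS1 was 1.20-fold lower (adjusted p = 0.00172). The rise of FADS1 in control at 48 h, 1.14-fold (adjusted p = 0.0103), was lost without control droplet replicate 1 or 3 or control 48 h replicate 1 (up to 0.0763). In targeted spheroids FADS1 rose 1.34-fold from droplets to 48 h (adjusted p = 4.4e-06).

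ACACA, which makes malonyl-CoA, had 79.4, 86.0 and 75.3 CPM in control droplets, 93.8, 90.4 and 92.9 CPM at 24 h and 79.7, 82.7 and 79.0 CPM at 48 h. Targeted libraries had 69.7, 74.3 and 72.3 CPM, 89.2, 91.9 and 90.2 CPM and 68.9, 76.3 and 83.9 CPM. In both genotypes the 24 h libraries lay above those of droplets and of 48 h. ACACA rose 1.15-fold in control and 1.25-fold in targeted spheroids from droplets to 24 h (adjusted p = 0.00639 and 0.000109). It fell from 24 h to 48 h by 1.15-fold and 1.19-fold (adjusted p = 0.0306 and 0.0236), calls lost without any of the 6 control libraries (up to 0.0954) and without any targeted 24 h library or targeted 48 h replicate 1 (up to 0.123). ACLY, the citrate lyase that supplies cytosolic acetyl-CoA, was called in none of the 12 comparisons, with group means from 304 ± 6.03 CPM (targeted droplets) to 343 ± 5.61 CPM (control, 24 h). FASN, the fatty acid synthase, had 262, 273 and 199 CPM in control and 188, 215 and 179.7 CPM in targeted droplets. These libraries overlapped, and its call there (1.26-fold lower, adjusted p = 0.0407) was lost without control replicate 1 or 2 or targeted replicate 1 or 3 (up to 0.19).

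Counted over the 34 members, collagen brought both rises and falls in each genotype. In control spheroids 7 rose and 11 fell at 24 h (against 27.8% and 28.7% of all genes), and 6 rose and 12 fell at 48 h (against 27.7% and 27.5%). In targeted spheroids 9 rose and 6 fell at 24 h (against 25.5% and 25.7%), and 11 rose and 6 fell at 48 h (against 25.8% and 23.6%). These shares, 17.6% to 35.3% of the members, lie near those of all genes. The median log2 change of the members was -0.12 and -0.0093 in control and 0.064 and 0.13 in targeted spheroids, beside -0.0035, 0.0048, -0.00097 and 0.021 over all genes. From 24 h to 48 h few members were called: in control 0 rose and 1 fell (against 6.32% and 6.88%), and in targeted 2 rose and 2 fell (against 2.07% and 1.73%). Those of targeted spheroids were ACAT2 (1.22-fold) and FDFT1 (1.27-fold) higher, and MYLIP (1.20-fold) and ACACA lower. MYLIP was called whichever library was left out, while ACAT2 and FDFT1 lost their calls without any of the 3 targeted 24 h libraries or targeted 48 h replicate 1 or 3 (up to 0.126 and 0.159). The count went from 4 to 1 without any targeted 24 h library or targeted 48 h replicate 1, to 2 without targeted 48 h replicate 3 and to 7 without targeted 48 h replicate 2. ACAT2 and ACACA also missed the threshold with only the 2 groups in the fit. With library size scaling alone, the higher share of all calls from 24 h to 48 h went from 54.5% to 44.2% in targeted spheroids.

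**Figure D4:**
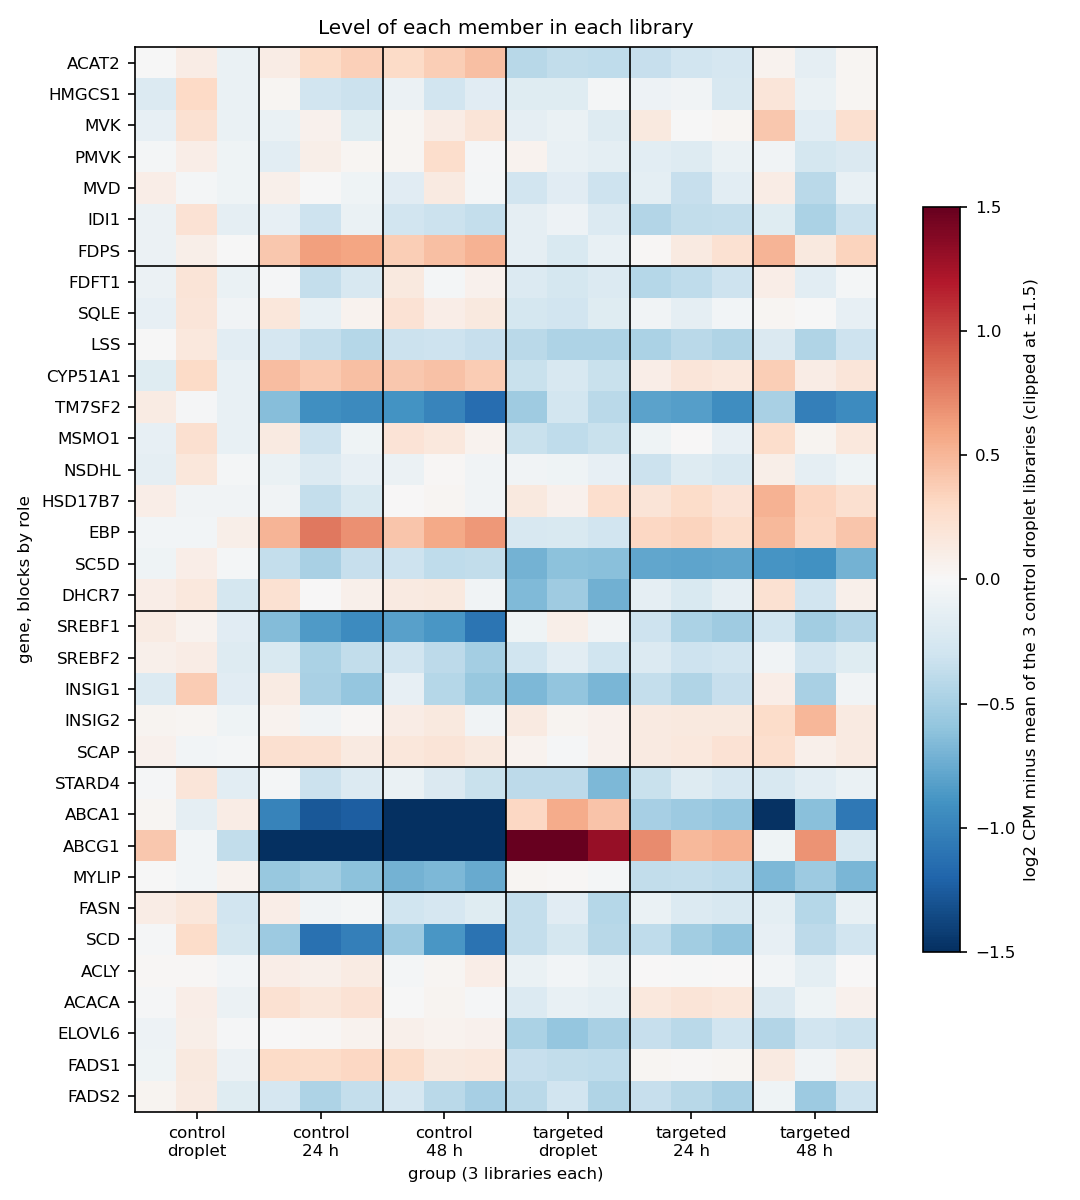
Log2 CPM of each member (rows, in blocks by role) in each of the 18 libraries (columns, 3 a group), minus the mean of the 3 control droplet libraries and clipped at ±1.5. ABCA1 and ABCG1 are lower in the collagen columns of both genotypes, and the second control droplet library lies above its group mean for 14 of the 18 mevalonate and sterol enzymes.

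Single libraries moved many sterol enzymes together. In control droplet replicate 2, 14 of the 18 mevalonate and sterol enzymes lay above their group mean (median 0.16 on the log2 scale), while 4 did in replicate 1 (median -0.076) and 1 in replicate 3 (median -0.099). In targeted 48 h replicate 1, 17 of the 18 lay above (median 0.14), in replicate 2, 1 (median -0.12), and in replicate 3, 10 (median 0.0018). Of all genes, 49.2% to 53.8% lay above their group mean in these 6 libraries. Each mean includes the library itself, so 1 high library places the others of its group lower. In the other groups 5 to 13 of the 18 enzymes lay above their group mean in each library. Their summed level was 718 to 853 CPM in control droplets, 622 to 629 CPM in targeted droplets, 757 to 796 CPM and 661 to 677 CPM at 24 h, and 782 to 794 CPM and 669 to 813 CPM at 48 h (control, then targeted). The droplet and 24 h groups did not overlap between genotypes, and the 48 h groups did.

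Other gene groups moved with the same comparisons. In targeted droplets 13 of 13 mitochondrially encoded mRNAs were called lower, against 9.7% of all genes. Their median log2 fold change was -0.85, and they summed to 7500 to 13700 CPM against 17100 to 21300 CPM in control. At 24 h and 48 h in collagen, 15.7% and 15.1% of all genes were lower in targeted spheroids. Of 16 DNA replication genes 16 and 14 were lower there, and of 10 mitosis genes 10 and 10. In droplets 1 and 0 were, against 9.7% of all genes. Between droplets and collagen 10 of 10 immediate-early and dissociation genes rose in both genotypes, against 25.5% to 27.8% of all genes. Their sum went from 441 to 545 CPM in the 6 droplet libraries to 1660 to 4170 CPM in the 12 collagen libraries. Summed markers of leukocytes (5 genes, mainly CD14 and LYZ) were 30.3 to 34.4 CPM in control and 36.6 to 44.2 CPM in targeted droplets, and 10.1 to 19.4 CPM in collagen. Those of endothelium (4 genes, mainly PECAM1) were 33.5 to 41.7 CPM in droplets and 16.7 to 35.7 CPM in collagen, those of fibroblasts (4 genes, mainly COL1A1) 13.8 to 20.3 and 22.2 to 36.9 CPM, and those of adipocytes (4 genes) at most 1.05 CPM. The part of these shifts in the results above was not tested.

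Corrected for exon length, SCD and ACLY were the most abundant members in all groups, while other members changed place. In CPM per kilobase of annotated exon, they were at 95.3 ± 17.9 and 61.7 ± 1.58 in control droplets and 78.6 ± 7.63 and 59.1 ± 3.24 in targeted spheroids at 48 h (SD, n = 3). SCD came before ACLY in droplets and in targeted collagen, and after it in control collagen, where ACLY was at 65.8 ± 1.08 against 51.4 ± 11.4 at 24 h. FDPS and FASN held places 3 to 5 throughout. MVK, HSD17B7, SQLE and ABCG1 were at the low end in control droplets, at 2.61 ± 0.369, 2.79 ± 0.171, 3.44 ± 0.393 and 1.40 ± 0.384. From control droplets to control collagen at 24 h, SREBF1 went from place 7 to 20 of 34, MYLIP from 5 to 17 and ABCA1 from 12 to 26, while EBP went from 23 to 9 and FADS1 from 17 to 8.

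Of 66 further genes of these pathways, 63 were tested in the same fit. In targeted droplets 8 were higher and 16 lower, at 24 h 6 and 17, and at 48 h 6 and 15 (of all genes 7.7% and 9.7%, 13.7% and 15.7%, and 14.4% and 15.1%), with median log2 fold changes of -0.023, -0.017 and -0.047. In control collagen 18 rose and 22 fell at 24 h and 18 and 20 at 48 h (of all genes 27.8% and 28.7%, and 27.7% and 27.5%), and in targeted collagen 19 rose and 20 fell at 24 h and 18 and 15 at 48 h (25.5% and 25.7%, and 25.8% and 23.6%). From 24 h to 48 h, 6 rose and 6 fell in control (6.32% and 6.88% of all genes) and 2 and 2 in targeted spheroids (2.07% and 1.73%). The change in collagen differed between the genotypes for 4 (larger in targeted) and 2 (smaller) at 24 h (3.32% and 4.09% of all genes), for 5 and 5 at 48 h (4% and 2.78%), and for none between 24 h and 48 h. Among other sterol and isoprenoid enzymes, GGPS1, which makes geranylgeranyl diphosphate, was higher in targeted collagen (39.7 against 31.1 CPM at 24 h, adjusted p = 0.000684). ICMT, which methylates prenylated proteins, was lower in all 3 conditions (-0.23, -0.55 and -0.47), and LBR, which shares the activity of TM7SF2, was lower at 48 h (119.7 against 162 CPM, adjusted p = 1.2e-05).

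Among the SREBP proteases, sterol sensor degraders and LXR receptors, 8 of 12 fell in targeted spheroids at 24 h and 5 of 12 in control, against 25.7% and 28.7% of all genes. MBTPS1, the protease that makes the first cut in SREBP, fell in collagen in both genotypes (-0.42 in control and -0.49 in targeted spheroids at 24 h, adjusted p = 1.36e-07 and 2.97e-08). NR1H3, which encodes LXR alpha, was higher in targeted collagen (12.6 against 8.07 CPM at 24 h and 12.6 against 7.25 CPM at 48 h, adjusted p = 0.000252 and 3.27e-05). ERLIN1, part of the complex that degrades sterol sensors, was lower there (-0.33 and -0.38). Among transport and esterification genes, TMEM97, which restrains the lysosomal exporter NPC1, rose in control collagen from 15.4 to 40.7 CPM at 24 h (2.64-fold, adjusted p = 1.45e-09). SOAT1, which esterifies cholesterol, was lower in targeted spheroids at 24 h and 48 h (-0.36 and -0.40). GRAMD1B, an Aster protein that carries cholesterol from the plasma membrane, averaged 0.503 CPM in control droplets and 4.14 CPM in targeted droplets (log2 3.03 ± 0.22, adjusted p = 2.19e-09).

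Among other fatty acid genes, ELOVL5 was lower in targeted collagen (221 against 315 CPM at 24 h, adjusted p = 7.66e-08). ACSL1, an acyl-CoA synthetase, was lower in all 3 conditions (-0.44, -0.50 and -0.60). ME1, the malic enzyme that supplies NADPH for synthesis, was lower in targeted droplets (27.1 against 40.5 CPM, adjusted p = 0.00377, lost with only the 2 groups in the fit) and fell in control collagen (-0.66 and -0.69). FADS3 rose in collagen in both genotypes, by 1.92-fold in control and 1.98-fold in targeted spheroids at 24 h (adjusted p = 4.26e-09 and 5.08e-09).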

How the data were processed

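RNA was sequenced from 18 spheroid samples. The authors deposited RSEM expected counts per gene, which were already whole numbers, in 1 table of the whole series. The submitters' processing notes name cutadapt 2.3, FastQC 0.11.8, STAR 2.7.8a, RSEM 1.3.3, MultiQC 1.7, DESeq2 1.42.0 and GRCh38, while its annotation and strand handling were not given in the sources used here. Since RSEM shares reads between overlapping genes and near-identical copies, some members are named above with such partners, but not all. In the annotation LSS shares 448 exonic bases with AP001468.1, SREBF2 280 with SREBF2-AS1 and STARD4 124 with STARD4-AS1, each on the other strand. HMGCS1, IDI1, MVK and TM7SF2 are among further members with overlapping genes, and SCD has a processed pseudogene.

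Groups came from the sample labels. 4 reporter rows, at 0 in all libraries, were left out. Counts were filtered (filterByExpr, minimum count 10), scaled with TMM factors and fitted with edgeR 4.0.16 (limma 3.58.1, R 4.3.3; glmQLFit and glmQLFTest) with 1 coefficient for each of the 6 groups and 12 residual degrees of freedom. Tested were 3 genotype comparisons, 6 comparisons between conditions of 1 genotype and 3 interactions. Adjustment followed Benjamini and Hochberg over all 17030 genes, with a threshold of 0.05. The standard error is the size of the log2 fold change divided by the square root of F. CPM values use the scaled library sizes without a pseudocount, also in the heat map, and levels per length divide by the merged exon bases of the gene. A prior count of 2 entered the log2 values used for deviations from group means and for correlations between libraries. The scripts were tested on simulated data. Within groups every pair of libraries differed beyond counting noise, and each was treated as 1 sample. That difference does not show whether the libraries came from separate cultures.

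The members and gene lists were chosen with earlier results of these data known. Members that passed in at least 3 of the 12 comparisons and reached 5 CPM in a group are given in full, as are the 5 regulators. Of the other pathway genes, up to 3 for each role and comparison with at least 1 CPM could be named. Alternatives were relative log expression scaling, library size scaling, no filter, a minimum count of 50, a replicate block, only the groups compared, DESeq2 1.42.0 and leaving out each library. Sequences are from RefSeq tables of GRCh38.p14. Results for some genes of the lists are not reported here.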

Additional observations from a re-analysis of the deposited data

Results flagged for a closer look

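Each result here was picked out because the change from droplets to collagen differed between control and targeted spheroids in edgeR's quasi-likelihood test of that difference (Benjamini-Hochberg adjusted p under 0.05). All values are differences in log2 change, targeted minus control. Among the members at 24 h these were LSS (0.35) and ABCG1 (1.24). At 48 h they were SCD (0.92), TM7SF2 (0.62), DHCR7 (0.59), STARD4 (0.53), SREBF1 (0.52), SREBF2 (0.47) and LSS (0.45).

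Among the further pathway genes, differences with a smaller rise in targeted spheroids at 48 h were those of the nuclear membrane sterol reductase LBR (-0.42, adjusted p = 0.00919), the Aster protein GRAMD1C (-0.87, adjusted p = 0.00903) and the acyl-CoA synthetase ACSL4 (-0.37, adjusted p = 0.0131). These 3 were called whichever of the 12 libraries was left out. ERLIN1 differed by -0.33 at 24 h and -0.38 at 48 h, the prenyl-protein methyltransferase ICMT by -0.33 at 24 h, and the desaturase SCD5 by -0.32 at 48 h. The malic enzyme ME1 differed in the other direction, by 0.66 at 24 h and 0.82 at 48 h. So did GRAMD1A (0.43 and 0.41) and GGPS1 (0.35 and 0.33). LPIN1, a phosphatidate phosphatase, differed by 0.33 at 24 h. NR1H3 (0.53) and GRAMD1B (1.62) differed at 48 h. Each of these 13 differences was lost without at least 2 of the 12 libraries, with adjusted p-values of up to 0.163 (GGPS1 at 48 h). Between 24 h and 48 h no gene was picked out.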

How the results depend on the processing

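None of the 121 calls on single members changed direction under any alternative. Counts of all called genes and of members stayed within 1.5 times of those reported, except the following. The cause was not tested. Without the filter on low counts, 5 members were called in control spheroids between 24 h and 48 h, 8 members and 1101 genes in targeted spheroids between 24 h and 48 h, 10 members and 2046 genes in the interaction at 24 h, 13 members and 2110 genes in that at 48 h, and 240 genes in that between 24 h and 48 h. With DESeq2 these comparisons gave 3 members (control, 24 h to 48 h), 7 members (interaction at 24 h), 1761 genes (interaction at 48 h) and 10 genes (interaction between 24 h and 48 h). With only the compared groups in the fit, 3 members were called in control and 2 in targeted spheroids between 24 h and 48 h, and with a minimum count of 50, 3 in control. The interaction at 24 h had 1 member with relative log expression scaling and 4 with library size scaling.

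With the replicate block, 2 members were called in control spheroids between 24 h and 48 h, 6 in the interaction at 24 h, and 1838 genes in the interaction at 48 h; of the 121 calls the block ended 1 (FASN in droplets). Replicate numbers did not pair the samples: of 45 same-numbered pairs 2 correlated above 0.1 (-0.0701 to 0.137, median 0.00746), and 16 correlated best with their own number.

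Leaving out 1 library moved the counts of members to 8 to 15 (genotype in droplets), 7 to 11 (genotype at 48 h), 0 to 2 (control, 24 h to 48 h), 1 to 7 (targeted, 24 h to 48 h), 0 to 7 (interaction at 24 h) and 1 to 10 (at 48 h). Counts of all genes moved to 1959 to 2949 (genotype in droplets), 1349 to 2027 (control, 24 h to 48 h), 324 to 854 (targeted, 24 h to 48 h), 414 to 1953 (interaction at 24 h), 316 to 1977 (at 48 h) and 0 to 2 (between 24 h and 48 h). Of 780 such refits of called members 166 missed the threshold and 0 changed sign.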
